A study of Cavia porcellus with 10 samples.

Results

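The genes described here encode the enzymes that modify and crosslink collagen, together with the chaperone that folds it, in the guinea pig cervix. They are the rows of the deposited table named LOX, LOXL1, LOXL2, LOXL3, LOXL4, PLOD1, PLOD2, PLOD3, P4HA2 or SERPINH1. All 10 names were found once each among 25028 genes, of which 20251 have a gene name. RNA was taken from the vaginal portion of the cervix of Hartley guinea pigs in 3 groups: 3 non-pregnant females in estrus (NP), 3 females at mid-term (MT, estimated at 43.6 ± 0.5 days of gestation) and 4 at late-term that were not in labor (LT, 65.2 ± 1.2 days). The labels name no treatment or genetic change. Each replicate is a separate animal, and gestational age was estimated from the fetuses after death.

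Collagen chains are modified in the endoplasmic reticulum before they are secreted. Prolyl 4-hydroxylases make the hydroxyproline that keeps the triple helix stable, lysyl hydroxylases (PLOD genes) hydroxylate lysines that later carry sugars and crosslinks, and SERPINH1 (HSP47) binds the folded helix. Outside the cell, copper-dependent lysyl oxidases (LOX and LOXL genes) oxidize lysines of collagen and elastin, which then link neighbouring molecules, and the cervix has to loosen this fibre network before birth.

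Abundance is given as TPM, the share of a gene among all transcripts of an animal, which sums to the same total in each. The NP libraries held 20047660 to 27351763 reads on genes, the MT libraries 18730665 to 25380420 and the LT libraries 25804572 to 27881572. Stages were compared by limma on log2(TPM + 1) for 12645 genes whose mean reached 3 TPM in 1 stage or more, and a change was called at a Benjamini-Hochberg adjusted P under 0.05. The log2 fold changes of all these genes had medians of -0.14 for NP to MT, -0.16 for MT to LT and -0.28 for NP to LT. Because of this shift, 33.9%, 22.9% and 21.1% of all limma calls were higher in the later stage, against 55.7%, 46.3% and 47.9% with edgeR on the read counts, whose TMM scaling brings the medians to between -0.03 and 0.00. NP replicate 1 stood apart from the other NP animals in its markers, with a summed 30339.9 TPM of smooth muscle genes against 7887 and 10217 and with the highest sum of squamous epithelial genes among all 10 animals, 331 TPM. For LOXL4, PLOD2, P4HA2, P3H1 and COL5A2 the value without it is also given.

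All 10 genes were above 3 TPM in every animal and were tested. SERPINH1 was the most abundant in each stage, with means of 394 ± 32.0 TPM in NP (SD, n = 3), 332 ± 47.6 TPM in MT (SD, n = 3) and 384 ± 63.7 TPM in LT (SD, n = 4), and did not overlap the next gene. LOXL4 was the least abundant in each stage, at 13.6 ± 7.06, 11.8 ± 3.00 and 8.63 ± 2.49 TPM, and overlapped LOXL3, the next gene above it, in all 3 stages. The order between them differed by stage. In NP the genes after SERPINH1 were LOXL2, P4HA2, LOXL1 and PLOD1, whose animals overlapped from each gene to the next. In MT they were LOXL1, PLOD1, P4HA2 and LOXL2, again with overlap from each to the next. In LT they were LOXL1, P4HA2 and LOXL2, and there PLOD1 lay below LOXL2 without overlap. LOX rested on the fewest reads, 114 to 373 per animal, and SERPINH1 on 6417 to 14342. One TPM of LOX corresponded to 8.35 to 13.2 reads against at least 28.2 for each of the other lysyl oxidases, and 12.3% of tested genes had fewer reads per TPM at equal depth. Whether the LOX gene model of this build is complete was not tested, so the level of LOX relative to the other genes is less certain than its course over the stages.

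**Figure D1:**
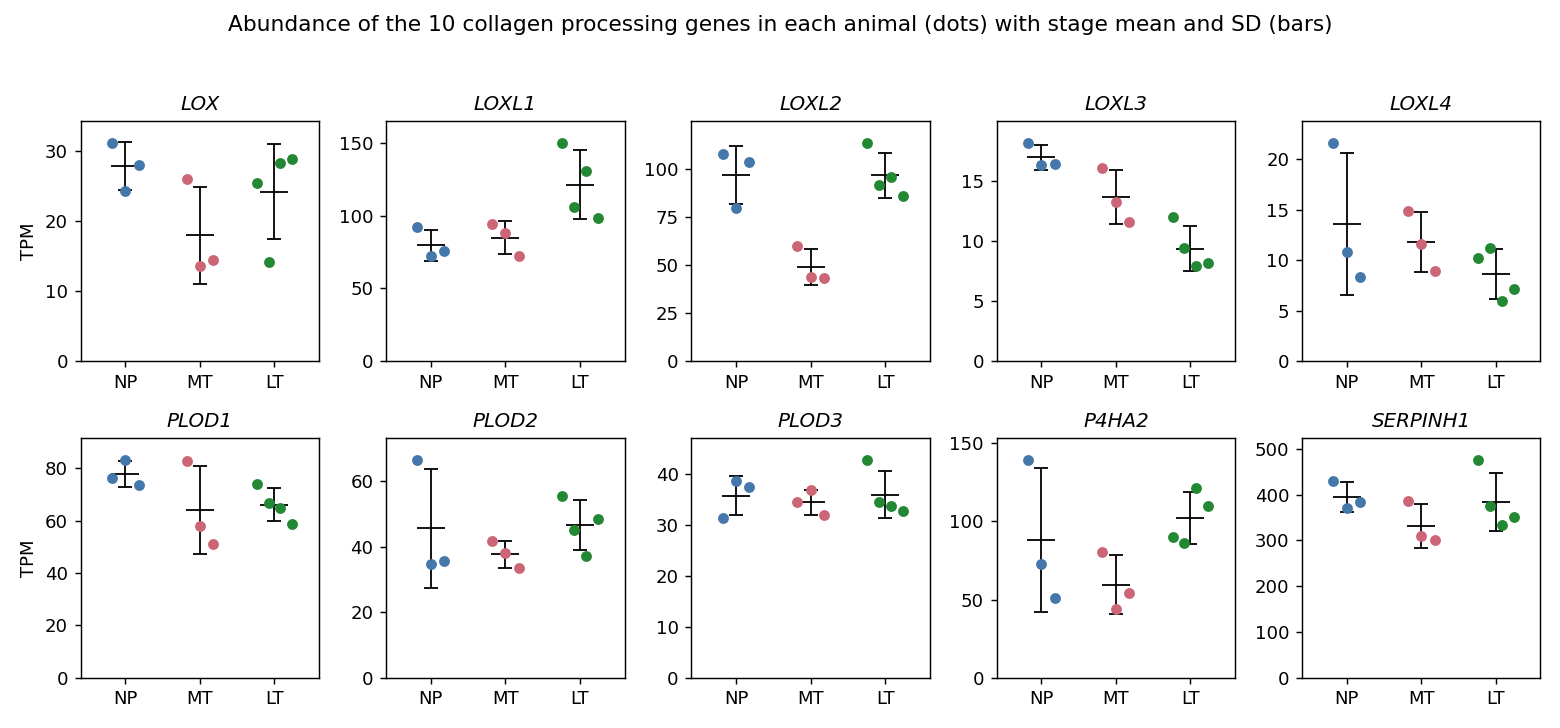
TPM of the 10 genes (y axis, starting at 0) in NP, MT and LT (x axis), 1 dot per animal, with the stage mean and SD as black bars. LOXL2 was at 43.1 to 59.9 TPM in the MT animals and at 79.8 TPM or above in every NP and LT animal, LOXL1 was highest in LT and LOXL3 lowest in LT.

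Over the 3 stages, 3 of the 10 genes differed by limma's F test, against 55.4% of all tested genes. They were LOXL2 (adjusted P = 0.00122), LOXL3 (adjusted P = 0.00453) and LOXL1 (adjusted P = 0.0201), all of them lysyl oxidases. The two-sided exact permutation test of the F statistic gave P = 0.0167, 0.00524 and 0.0271 for these genes. For the other 7 genes the adjusted P was 0.118 or more. The stage with the lowest mean was MT for 7 of the 10 genes, against 23.2% of all tested genes, and none of the 10 had its highest mean there, against 21.4%. One of the 7 is PLOD3, which was higher in MT than in NP after median-ratio scaling and with edgeR and DESeq2. LOXL1 was lowest in NP, as were 19.9% of tested genes, and LOXL3 and LOXL4 were lowest in LT, as were 56.9%.

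LOXL2 (ENSCPOG00000009701), a lysyl oxidase with scavenger receptor domains, fell from NP to MT and rose from MT to LT. It was measured at 108, 79.8 and 103 TPM in the NP animals, at 59.9, 43.9 and 43.1 TPM in the MT animals and at 113, 91.6, 95.6 and 85.8 TPM in the LT animals. Every MT animal lay below every NP and LT animal, while NP and LT overlapped. The MT mean was 49.0 ± 9.50 TPM (SD, n = 3), which is 0.505 of the NP mean of 96.9 ± 15.0 TPM (SD, n = 3), and the LT mean of 96.6 ± 11.9 TPM (SD, n = 4) was 1.97 times the MT mean. Limma put the first step at -0.97 on the log2 scale (standard error 0.16, adjusted P = 0.0041) and the second at 0.97 (standard error 0.15, adjusted P = 0.00321). Both changes were called under all 18 alternative settings, with adjusted P from 0.000168 to 0.0238 and from 3.92e-08 to 0.0171. The exact permutation test gave P = 0.1 for NP against MT, the smallest that 3 animals against 3 allow, and P = 0.0286 for MT against LT, the smallest for 3 against 4. Between NP and LT the difference was -0.0008 on the log2 scale (standard error 0.15, limma adjusted P = 0.997), which edgeR put at 0.27 (adjusted P = 0.217). In whole tissue, fewer cells that express a gene and less RNA per cell cannot be told apart. The summed TPM of the 3 epithelial markers in the table out of 7 listed (EPCAM, CDH1, KRT14) was also lowest in MT, at 642 to 1702 against 1369 to 3267 in NP and 2001 to 3380.2 in LT. KRT14, a basal keratin, was the larger part of this sum in all animals but MT replicates 2 and 3, and EPCAM and CDH1 did not have their lowest mean in MT. The summed TPM of 5 of 7 fibroblast markers was 1434 to 1560.2 in NP, 1361 to 1603 in MT and 1348 to 1975 in LT, most of it VIM, which was not called. The other markers moved in different directions. LUM (lumican) ran with LOXL2, at means of 203, 126 and 243 TPM. Its first step was -0.67 on the log2 scale (limma adjusted P = 0.0433, called in 6 of 18 alternatives, edgeR 0.0965) and its second 0.91 (limma adjusted P = 0.00761). From MT to LT, PDGFRA fell by 1.59 and PDGFRB by 0.56 on the log2 scale (limma adjusted P = 0.00187 and 0.0324, edgeR 0.0032 and 0.074). The summed TPM of 5 of 6 leukocyte markers had its lowest mean in MT as well, at 66.7 to 160 in NP, 63.3 to 82.8 in MT and 71.2 to 113 in LT. CD68 (macrophages), at means of 58.9, 26.9 and 52.1 TPM, and CSF1R, at 38.1, 27.1 and 31.2 TPM, were lowest in MT but not called by limma. PTPRC (15.4, 9.62 and 6.89 TPM), CD3E (5.99, 5.39 and 2.01 TPM) and CD79A (3.90, 0.809 and 0.510 TPM) had their lowest means in LT. The sum of 4 of 6 squamous epithelial markers was 39.4 to 331 TPM in NP, 13.6 to 37.2 in MT and 22.0 to 34.1 in LT. Among them TGM1, a transglutaminase, was lowest in the 3 MT animals (1.25 to 3.25 TPM, against 7.66 to 135 in NP and 5.93 to 9.45 in LT), with a limma adjusted P of 0.0157 from NP to MT and 0.159 from MT to LT. EVPL also had its lowest mean in MT (29.1, 16.9 and 18.7 TPM) and was not called. IVL (53.3, 2.55 and 0.528 TPM) and SPRR3 (15.4, 0.0552 and 0 TPM) had their lowest means in LT and did not rise from MT to LT. No marker of these 4 lists was below 3 TPM in all stages, and their part in the LOXL2 result was not tested.

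LOXL1 (ENSCPOG00000006062), the family member known for its part in elastic fibre assembly, rose late. Its values were 91.9, 72.1 and 75.3 TPM in NP, 94.3, 88.4 and 72.1 TPM in MT and 149.8, 106, 131 and 98.0 TPM in LT. Every LT animal was above every NP and MT animal, and NP and MT overlapped. The means were 79.8 ± 10.6 TPM in NP (SD, n = 3), 84.9 ± 11.5 TPM in MT (SD, n = 3) and 121 ± 23.7 TPM in LT (SD, n = 4). LOXL1 was higher in LT than in NP by a log2 fold change of 0.58 (standard error 0.16, limma adjusted P = 0.0124), and edgeR gave 0.88 (adjusted P = 0.00464). This call was kept in 17 of 18 alternatives, and without NP replicate 2 the adjusted P was 0.0529. The step from MT to LT was 0.50 on the log2 scale (standard error 0.16, limma adjusted P = 0.043), called in 9 of 18 alternatives, with adjusted P from 0.00326 to 0.146. That call was lost with no filter on low values and when NP replicate 2 or 3, any MT animal, or LT replicate 1, 2 or 3 was left out. Among cell type markers, the summed TPM of 2 of 5 cartilage markers (COL9A1 and COMP) ran with LOXL1, at 15.4 to 16.9 in NP, 14.3 to 30.2 in MT and 36.1 to 67.2 in LT. COMP, a matrix protein that binds collagen, carried this rise while COL9A1 fell from NP to LT (limma log2 fold change -1.56, adjusted P = 0.00481). COL9A1 reached the filter of 3 TPM in NP alone (means 3.98, 0.980 and 0.589 TPM), which favours a fall from NP. The part of cartilage cells in the LOXL1 result was not tested. The summed TPM of the 6 smooth muscle markers was also higher in every LT animal (18708 to 38950.5) than in every MT animal (12383 to 18647), while NP spanned 7887 to 30339.9. Of these markers TAGLN was called, from NP to LT (limma adjusted P = 0.0493, in 4 of 18 alternatives, edgeR 0.0749). The epithelial sum was likewise higher in every LT animal (2001 to 3380.2) than in every MT animal (642 to 1702), with NP at 1369 to 3267. KRT14 was called from MT to LT (limma adjusted P = 0.0184), EPCAM from NP to LT (limma adjusted P = 0.00248) and CDH1 in neither. The part of smooth muscle or epithelial cells in the LOXL1 result was not tested.

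LOXL3 (ENSCPOG00000023961), a close relative of LOXL2, went down. It was at 18.1, 16.3 and 16.3 TPM in NP, at 16.1, 13.2 and 11.6 TPM in MT and at 11.9, 9.37, 7.93 and 8.16 TPM in LT. The LT animals lay below all NP animals, and LT replicate 1 overlapped the lowest MT animal. From 16.9 ± 1.03 TPM (SD, n = 3) in NP to 9.35 ± 1.84 TPM (SD, n = 4) in LT the step was -0.81 on the log2 scale (standard error 0.15, limma adjusted P = 0.0019), and it was called under all 18 alternatives, with edgeR at -0.58 (adjusted P = 0.0166). The fall from MT (13.6 ± 2.26 TPM, SD, n = 3) to LT was -0.50 (standard error 0.15, limma adjusted P = 0.033) and was called in 8 of 18 alternatives. It was lost with edgeR (-0.38, adjusted P = 0.111), DESeq2, median-ratio scaling, no filter on low values and the replicate block, and when MT replicate 1 or 2 or LT replicate 2, 3 or 4 was left out. The change from NP to MT was not called (log2 fold change -0.30, limma adjusted P = 0.215), although no animal overlapped. The summed TPM of 3 of 5 endothelial markers (CDH5, KDR, TEK) was 63.6 to 81.4 in NP, 49.8 to 65.4 in MT and 27.4 to 41.2 in LT, in the same order as LOXL3. CDH5 and TEK had this order of means too, but KDR was highest in MT, at means of 23.0, 27.2 and 12.3 TPM. The fibroblast marker PDGFRB also ran in the order of LOXL3, at means of 64.4, 43.7 and 29.6 TPM (log2 fold change from NP to LT -1.10, limma adjusted P = 0.000675). The other fibroblast markers in the table did not. PDGFRA had means of 55.1, 74.3 and 24.4 TPM and LUM of 203, 126 and 243 TPM. FBLN1 had means of 125, 100 and 156 TPM and VIM of 1054, 1158 and 1112 TPM. The leukocyte marker PTPRC (CD45) had the order of LOXL3 too, at means of 15.4, 9.62 and 6.89 TPM (NP to LT -0.98, limma adjusted P = 0.0154, edgeR 0.0293). The means of CD3E and CD79A had this order without a limma call. The other leukocyte markers did not, and were lowest in MT. CD68 had means of 58.9, 26.9 and 52.1 TPM and CSF1R of 38.1, 27.1 and 31.2 TPM. The part of these cells in the LOXL3 result was not tested.

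LOX and LOXL4 were not called in any comparison. LOX (ENSCPOG00000023049), the founding member of the family, was at 31.1, 24.3 and 28.0 TPM in NP, 26.0, 13.5 and 14.5 TPM in MT and 25.5, 14.2, 28.3 and 28.8 TPM in LT. MT replicate 1 lay within the NP range, and LT replicates 1 and 2 lay within the MT range. Between NP and MT it differed by -0.65 on the log2 scale (standard error 0.29, limma adjusted P = 0.141), and it passed only when MT replicate 1 was left out (-0.94, adjusted P = 0.0459). LOXL4 (ENSCPOG00000007010) spanned 8.30 to 21.6 TPM within NP, 8.90 to 14.9 TPM in MT and 5.93 to 11.2 TPM in LT. Between NP and LT, LOXL4 differed by -0.53 on the log2 scale (standard error 0.31, limma adjusted P = 0.181), and by -0.16 (adjusted P = 0.621) without NP replicate 1, its highest animal at 21.6 TPM.

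The make-up of the lysyl oxidase family was compared as the share of each gene in the summed TPM of the 5 genes, a measure that scaling between libraries does not change. The sum was 235 ± 33.7 TPM in NP (SD, n = 3), 177 ± 31.1 TPM in MT (SD, n = 3) and 260 ± 38.5 TPM in LT (SD, n = 4). LOXL2 held 39.3% to 44.7% of it in the NP animals, 25.7% to 28.7% in MT and 35.6% to 39.5% in LT. LOXL1 held 32.6% to 35.5% in NP, 44.7% to 51.8% in MT and 43.0% to 48.7% in LT. LOXL2 was thus the larger share in every NP animal and LOXL1 in every pregnant animal. The TPM ratio of LOXL2 to LOXL1 was 1.22 ± 0.138 in NP (SD, n = 3), 0.577 ± 0.0721 in MT (SD, n = 3) and 0.807 ± 0.0743 in LT (SD, n = 4), without overlap between any pair of stages. LOXL3 held 6.70% to 8.02% in NP, 7.60% to 7.76% in MT and 2.95% to 4.04% in LT. The ratio of LOXL1 to LOXL3 was 4.42 to 5.07 in NP, 5.87 to 6.67 in MT and 11.3 to 16.5 in LT. LOXL4 held 3.59% to 7.98% in NP, 5.92% to 7.04% in MT and 2.21% to 4.84% in LT, so that LT lay below MT without overlap for LOXL4 as for LOXL3. The shares of LOX, subject to the same doubt on its gene model, overlapped between all stages, at 11.5% to 12.1%, 7.92% to 12.3% and 6.12% to 12.7%. These shares and ratios are descriptions of values already tested as single genes and were given no test of their own.

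**Figure D2:**
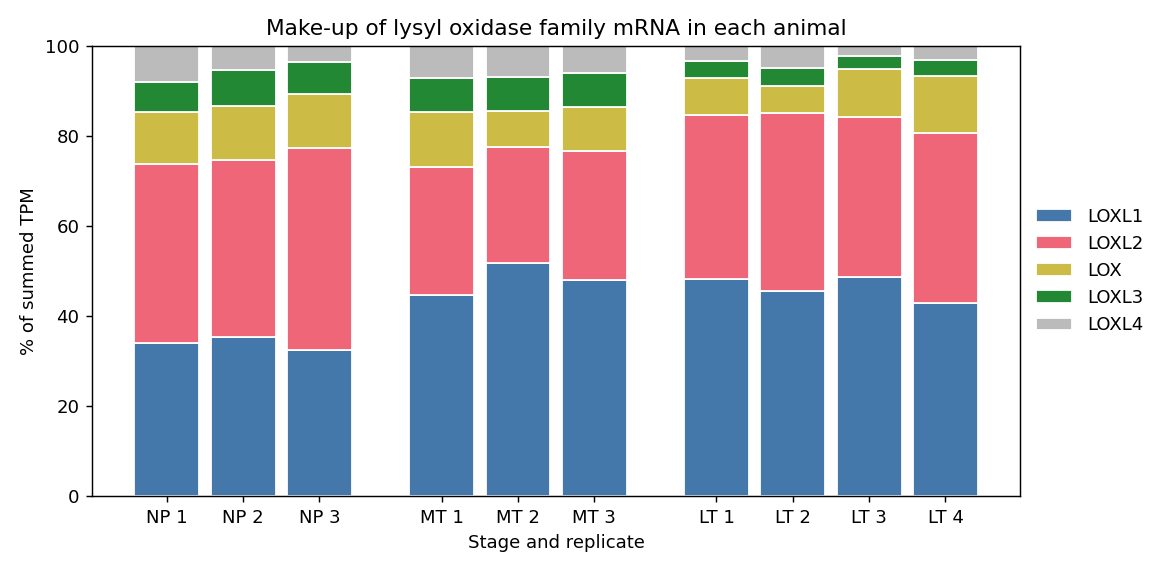
Share of each of the 5 lysyl oxidase genes in their summed TPM (y axis, percent) in each of the 10 animals (x axis), stacked to 100%. LOXL1 took 32.6% to 35.5% in NP and 43.0% to 51.8% in MT and LT, LOXL2 was smallest in MT, and LOXL3 was smallest in LT.

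No lysyl hydroxylase was called by limma in any comparison. PLOD1 (ENSCPOG00000020909), which acts on the helical part of collagen, was at 76.5, 83.3 and 73.6 TPM in NP, 82.9, 58.2 and 51.1 TPM in MT and 74.2, 67.0, 64.8 and 58.6 TPM in LT. MT replicate 1 lay within the NP range, and the change from NP to MT (log2 fold change -0.30, limma adjusted P = 0.207) passed only without it (-0.50, adjusted P = 0.0237). PLOD2 (ENSCPOG00000014514), the hydroxylase of the telopeptides where crosslinks form, was at 66.6, 34.7 and 35.7 TPM in NP, 41.7, 38.2 and 33.4 TPM in MT and 55.6, 45.3, 37.2 and 48.5 TPM in LT. NP replicate 1 was the highest of all animals, and the 3 stages overlapped. No PLOD2 change was called, with limma adjusted P from 0.34 to 0.776. Without NP replicate 1 the log2 fold change from NP to LT went from 0.08 to 0.38 (limma adjusted P = 0.0515). PLOD3 (ENSCPOG00000002777), which also adds sugars to hydroxylysine, had means of 35.8 ± 3.88 TPM in NP (SD, n = 3), 34.5 ± 2.45 TPM in MT (SD, n = 3) and 36.0 ± 4.65 TPM in LT (SD, n = 4). Between NP and LT, PLOD3 differed by 0.0057 on the log2 scale by limma (standard error 0.12, adjusted P = 0.971), but edgeR, whose scaling removes the shift of all genes, gave 0.30 and called it (adjusted P = 0.0231), as did DESeq2 and limma after median-ratio scaling. PLOD1 held 43.8% to 53.2% of the summed lysyl hydroxylase TPM in NP, 43.7% to 52.1% in MT and 41.9% to 47.8% in LT, so that it was the largest of the 3 in every animal.

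P4HA2 (ENSCPOG00000008411), a catalytic subunit of prolyl 4-hydroxylase, spanned 51.2 to 139 TPM within NP. Its values were 139, 72.8 and 51.2 TPM in NP, 80.3, 43.9 and 54.2 TPM in MT and 90.1, 86.3, 121 and 109.7 TPM in LT. No LT animal was as low as any MT animal, whereas the NP animals spanned both groups. From 59.5 ± 18.8 TPM in MT (SD, n = 3) to 102 ± 16.6 TPM in LT (SD, n = 4) the log2 fold change of 0.80 (standard error 0.31, limma adjusted P = 0.0779) was not called, and the exact permutation test gave P = 0.0286, the smallest possible for these animal numbers. It passed in 4 of 18 alternatives, among them the fit without NP replicate 1 (adjusted P = 0.0179). From NP to LT the log2 fold change was 0.32 (limma adjusted P = 0.403) and 0.71 without NP replicate 1 (adjusted P = 0.0308), but 0.0011 without NP replicate 3 (adjusted P = 0.998). The summed TPM of the 6 smooth muscle markers was highest in NP replicate 1 (30339.9) and in LT replicates 3 and 4 (37681 and 38950.5), the animals of their stage with the most P4HA2, against 7887 to 18809 in the other 7 animals. Within MT the order was the reverse, with the least smooth muscle (12383) in MT replicate 1, which had the most P4HA2, and the most (18647) in MT replicate 2, which had the least. KRT14 had the same order of animals as P4HA2 within MT, at 1142, 133 and 369 TPM, and was highest in NP replicate 1 (2825 TPM) and LT replicate 4 (2803 TPM). Its order differed from that of P4HA2 in NP (919 and 970 TPM in replicates 2 and 3) and in LT. Within NP, CDH1 had the order of P4HA2 (173, 147 and 129 TPM) and EPCAM the reverse (269, 303 and 312 TPM). Within MT both were highest in replicate 3 (197 and 386 TPM). The part of smooth muscle or epithelial cells in P4HA2 was not tested. P4HB, the subunit that pairs with P4HA2, rose at each step, and the TPM ratio of P4HA2 to P4HB was 0.218 to 0.454 in NP, 0.128 to 0.217 in MT and 0.179 to 0.232 in LT. SERPINH1 (ENSCPOG00000022994) was at 431, 369.7 and 383 TPM in NP, 387, 309 and 300.3 TPM in MT and 476, 374, 334 and 351 TPM in LT. The stages overlapped and no change was called, with limma adjusted P from 0.243 to 0.779.

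Counted by comparison, 1 of the 10 genes fell from NP to MT (LOXL2), where 12.2% of all tested genes were called lower and 6.27% higher. From MT to LT 2 of 10 rose (LOXL1 and LOXL2), against a background of 6.73%, and 1 fell (LOXL3), against 22.7%. From NP to LT 1 rose (LOXL1) and 1 fell (LOXL3), where 11.2% of all genes were called higher and 41.9% lower. The median log2 fold change of the 10 genes was -0.28, 0.25 and -0.03 in these comparisons, beside -0.14, -0.16 and -0.28 over all tested genes. With edgeR, 1 fell from NP to MT (LOXL2, background 7.98% lower and 10.1% higher), 2 rose from MT to LT (LOXL1 and LOXL2, background 13.4% higher and 15.6% lower), and 2 rose and 1 fell from NP to LT (LOXL1, PLOD3 and LOXL3, background 23.6% higher and 25.8% lower). The animals did not overlap for 2 genes between NP and MT (LOXL2 and LOXL3, against 34.9% of tested genes), for 3 between MT and LT (LOXL1, LOXL2 and P4HA2, against 46.3%) and for 2 between NP and LT (LOXL1 and LOXL3, against 52.4%). The comparisons share animals and are set side by side only.

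**Figure D3:**
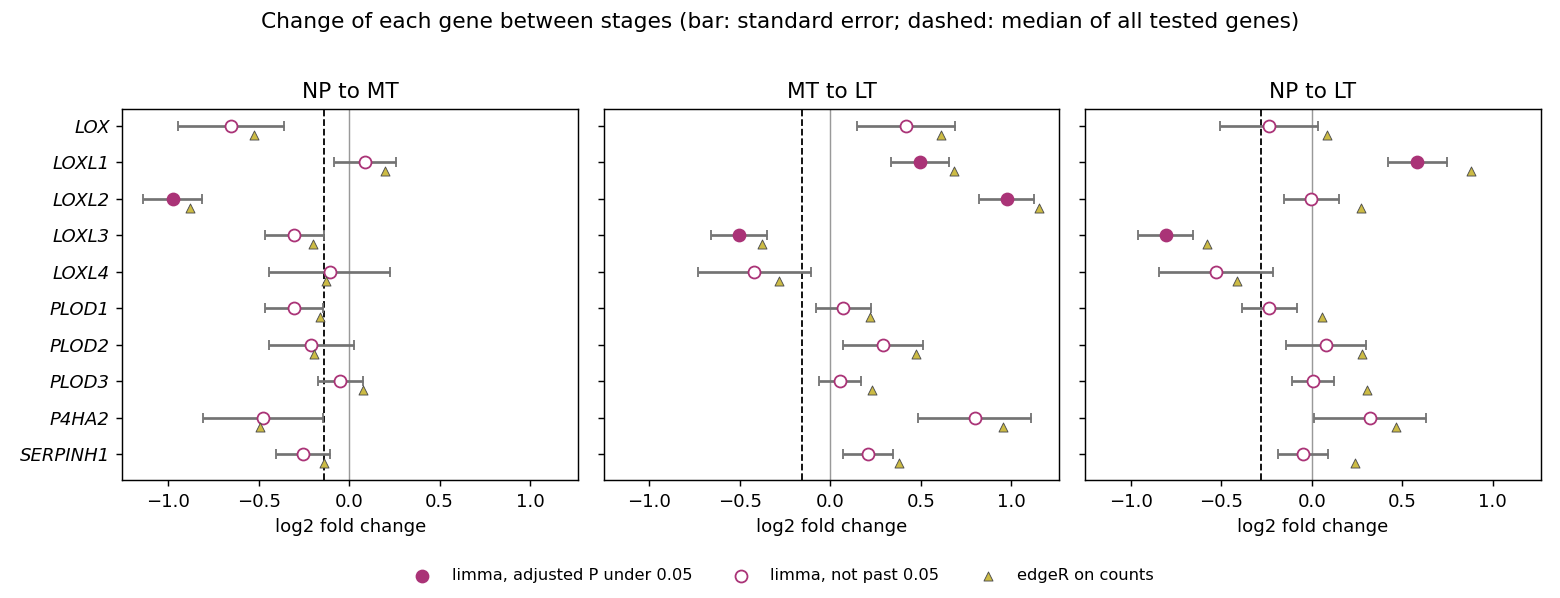
Log2 fold change of each gene (x axis) from NP to MT, MT to LT and NP to LT, by limma on log2(TPM + 1) with its standard error (circles, filled where the adjusted P is under 0.05) and by edgeR on counts (triangles). The dashed line is the limma median of all tested genes, and the largest changes are those of LOXL2, -0.97 and then 0.97.

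The 10 genes were also set against type I collagen, which the authors name as the dominant collagen mRNA, as TPM per 1000 TPM of COL1A1 plus COL1A2. Collagen III was not mapped according to the authors, so it is part of neither these ratios nor the substrates counted below. Neither collagen gene was called in any comparison, with limma adjusted P of 0.61 or more. LOXL2 was at 10.4 to 18.6 in NP, at 6.19 to 8.67 in MT and at 12.9 to 15.1 in LT, so that MT again lay below both other stages without overlap. LOXL1 was at 8.86 to 13.5 in NP, 9.74 to 16.8 in MT and 16.6 to 20.0 in LT, where LT overlapped MT but not NP. LOXL3 was at 1.75 to 2.94, 1.66 to 2.51 and 1.21 to 1.47, with LT below both other stages. SERPINH1 was between 39.9 and 68.8 over all 10 animals, with overlap of all stages. P4HA2 was at 8.30 to 10.9 in MT and 10.3 to 19.3 in LT, which overlapped on this scale. LOX was at 3.00 to 5.03 in NP and 2.56 to 2.91 in MT, without overlap. Replicate 1 of each stage had the highest type I collagen sum of its stage (10374, 9680 and 8775 TPM), and these animals also had the highest value of their stage for 8, 9 and 7 of the 10 genes, against 21.9%, 38.2% and 36.2% of all tested genes. Over the 10 animals, Pearson's r between log2 values of pairs of the 10 genes had a median of 0.400, ranged from -0.518 to 0.762 and was above 0 in 37 of 45 pairs, where all pairs share the same libraries and stages.

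The other genes of collagen synthesis and processing were read from the same fit. Of 26 listed, 24 were in the table under the names searched and 22 were tested, P4HA1 and MIA3 were not analysed here, and TLL1 and TLL2 had means below 3 TPM in every stage. From NP to MT 3 rose and 2 fell, from MT to LT 5 rose and 3 fell, and from NP to LT 8 rose and 7 fell, where the shares of all tested genes called higher and lower were 6.27% and 12.2%, 6.73% and 22.7%, and 11.2% and 41.9%. With edgeR 3 and 0, 6 and 2, and 10 and 2 were called, beside edgeR shares of 10.1% and 7.98%, 13.4% and 15.6%, and 23.6% and 25.8% of all tested genes. At an unadjusted P under 0.05, edgeR had 3 lower from NP to MT. Genes of the endoplasmic reticulum were found on both sides. P4HB, which is also a disulfide isomerase, went from 266 ± 37.0 TPM in NP (SD, n = 3) to 374 ± 48.7 TPM in MT (SD, n = 3) and 487 ± 26.9 TPM in LT (SD, n = 4), with a log2 fold change from NP to LT of 0.88 (standard error 0.12, limma adjusted P = 0.000353). PDIA3, another disulfide isomerase, went from 498 ± 50.2 to 727 ± 129 and 958 ± 53.9 TPM (log2 fold change from NP to LT 0.95, limma adjusted P = 0.000388). For both genes no animals overlapped between any pair of stages. PPIB (cyclophilin B) rose from NP to LT by 0.44, HSPA5 (BiP) by 0.70, FKBP10, a prolyl isomerase, by 0.35, and P3H4 by 0.49. Leaving out NP replicate 2 or 3 ended the calls of PPIB, HSPA5 and FKBP10, with limma adjusted P from 0.0502 to 0.122, and P3H4 was lost without NP replicate 3 (adjusted P = 0.0516). FKBP10 was also lost without LT replicate 1 or 3. The rises of P4HB and PDIA3 from NP to LT held without any 1 animal, but their single steps did not. FKBP14, another prolyl isomerase, fell by 0.57 from MT to LT (limma adjusted P = 0.0156, edgeR 0.035) and by 0.51 from NP to LT (limma adjusted P = 0.0121, edgeR 0.158, lost without NP replicate 2), and TMEM38B, a cation channel of the endoplasmic reticulum, fell by 0.45 from MT to LT (limma adjusted P = 0.0228, edgeR 0.129, lost without MT replicate 2 or 3 or LT replicate 1 or 4).

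Among the prolyl 3-hydroxylases, P3H2 and P3H1 fell from NP to LT. P3H2 fell by 0.80 on the log2 scale (limma adjusted P = 0.0105), P3H1 by 0.50 (limma adjusted P = 0.0394) and CRTAP, the partner of P3H1, by 0.39 (limma adjusted P = 0.0056). P3H1 was called in 9 of 18 alternatives and was lost without NP replicate 1 (-0.35, adjusted P = 0.123) or 2 and without LT replicate 2, 3 or 4. None of these 3 falls was called with edgeR, which put them at -0.50, -0.24 and -0.11. Falls called by both tools from NP to LT were those of COLGALT2, a collagen galactosyltransferase of low abundance (3.65 to 1.38 TPM, log2 fold change -0.95), and of BMP1, the C-propeptide proteinase. BMP1 was at 76.7, 88.1 and 112 TPM in NP, 73.2, 38.9 and 32.0 TPM in MT and 48.6, 43.7, 42.6 and 38.5 TPM in LT. Every NP animal was above every other animal, and the log2 fold change from NP to LT was -1.06 (standard error 0.24, limma adjusted P = 0.0052). PCOLCE, which enhances BMP1, rose over the same stages from 209.6 ± 15.9 TPM (SD, n = 3) to 418 ± 89.0 TPM (SD, n = 4; log2 fold change 0.97, limma adjusted P = 0.00352), and ADAMTS2, the N-propeptide proteinase, rose from 74.4 ± 39.0 to 129 ± 19.8 TPM (log2 fold change 0.89, limma adjusted P = 0.0195). The ADAMTS2 call was lost without NP replicate 2 or 3 (limma adjusted P = 0.0704 and 0.0744). ADAMTS2 had its highest mean in MT, at 156 to 166 TPM in its 3 animals. ADAMTS3, a related proteinase, fell by 0.60 from NP to LT (limma adjusted P = 0.00868, edgeR 0.0575), and PCOLCE2 rose by 0.97 from MT to LT (limma adjusted P = 0.0196, edgeR 0.0113), which was lost without MT replicate 2 or 3.

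**Figure D4:**
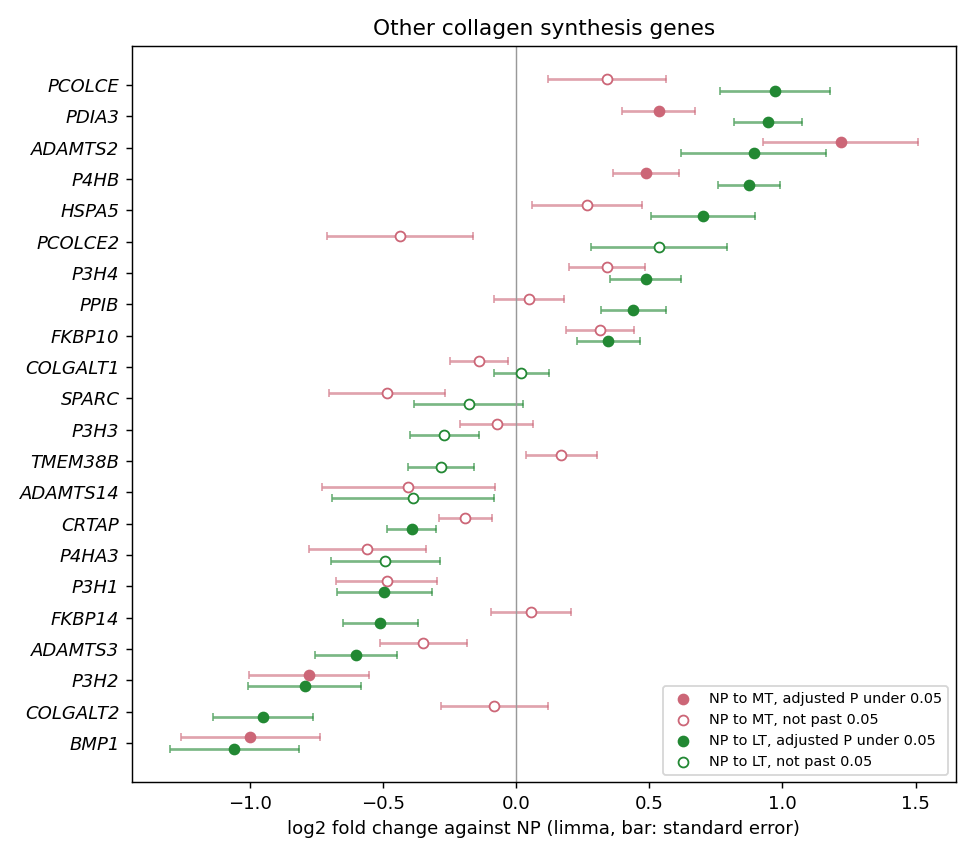
Log2 fold change against NP (x axis, limma on log2(TPM + 1), with standard error) of the 22 tested genes of collagen synthesis that are not among the 10, in MT (red) and LT (green), filled where the adjusted P is under 0.05. From NP to LT 8 genes rose and 7 fell, from PCOLCE at 0.97 to BMP1 at -1.06.

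Among 16 listed substrates and partners of the lysyl oxidases, all tested, 1 rose and 2 fell from NP to MT, 2 fell from MT to LT, and 1 rose and 7 fell from NP to LT, where the all-gene shares called higher and lower were 6.27% and 12.2%, 6.73% and 22.7%, and 11.2% and 41.9%. With edgeR 2 rose and 3 fell from NP to LT, against 23.6% and 25.8% of all tested genes. No rise was called by limma from MT to LT, where 1 gene rose at an unadjusted P under 0.05 and edgeR called 1 (ATOX1). FMOD (fibromodulin), a proteoglycan that binds collagen and lysyl oxidase, rose from NP to MT and fell from MT to LT, the reverse of LOXL2. It was at 303 ± 64.4 TPM in NP (SD, n = 3), 675 ± 68.3 TPM in MT (SD, n = 3) and 369.7 ± 77.6 TPM in LT (SD, n = 4), with log2 fold changes of 1.17 (limma adjusted P = 0.00331) and -0.88 (limma adjusted P = 0.00662). POSTN (periostin), a matrix protein that assists BMP1 in activating lysyl oxidase, was at 4.56 to 19.8 TPM in NP, on 254 to 907 reads, and at 0.0921 to 0.375 TPM in MT (limma adjusted P = 0.00126). It reached the filter of 3 TPM in NP alone, which favours a fall from NP. ATP7A, the pump that supplies copper to lysyl oxidases, fell from 12.2 ± 1.35 TPM in NP (SD, n = 3) to 8.52 ± 0.593 TPM in LT (SD, n = 4; log2 fold change -0.47, limma adjusted P = 0.00486; edgeR -0.22, adjusted P = 0.0508). ATOX1, which carries copper to ATP7A, rose over the same stages by a log2 fold change of 0.57 (limma adjusted P = 0.0162; edgeR 0.87, adjusted P = 0.00128). Of the substrates, elastin (ELN) was not called and the minor fibrillar collagen COL11A1 fell from NP to MT by 2.01 on the log2 scale (limma adjusted P = 0.00776). FN1 (fibronectin) fell from a mean of 1180.0 TPM in NP to 554 TPM in LT (log2 fold change -1.08, limma adjusted P = 0.00427, edgeR 0.0382), called in all 18 alternatives. The falls of EFEMP2 (fibulin-4), COL5A2 and COL11A2 from NP to LT were called by limma (adjusted P = 0.0152, 0.0428 and 0.039) in 13, 8 and 9 of 18 alternatives, and not by edgeR. COL11A2 also reached the filter of 3 TPM in NP alone (means 3.25, 2.77 and 1.21 TPM). COL5A2 went from -0.76 to -0.47 (adjusted P = 0.149) without NP replicate 1, its highest animal at 201 TPM.

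The genes whose log2(TPM + 1) followed each of the 10 most closely over the 10 animals were taken as a description. For LOXL2 they were SMPD1 (Pearson's r 0.98), C15orf48 (0.97) and CENPL (0.96), and C15orf48 had means of 253, 95.5 and 274 TPM in NP, MT and LT. For LOXL1 they were COMP (0.93), CLEC11A (0.91) and SIGLEC1 (0.90). For LOXL3 they were SNORA67 (0.98), ADAMTS12 (0.98) and SNORA17 (0.97), and for P4HA2 they were NEU2 (0.98), FAM83B (0.97) and CD44 (0.96). For the other 6 genes the closest was at 0.91 to 0.96. They were U6, VAMP3 and MMP23B for LOX, MLEC, MBOAT1 and TMEM164 for LOXL4, PSRC1, EMC9 and ERI2 for PLOD1, TUBA1A, GJA1 and FKBP1A for PLOD2, and PODNL1, GID8 and POFUT2 for PLOD3. For SERPINH1 they were SMPD3, COLGALT1 (GLT25D1 in the table, 0.89), a collagen galactosyltransferase, and LPAR1.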

How the data were processed

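Per the labels, poly-A RNA of 10 cervices was sequenced as strand-specific single reads of 75 bases. The authors aligned the reads to cavPor3.69 with TopHat2 and deposited 1 table with a read count per gene and animal (HTSeq-count 0.5.4p1) and a TPM value that the authors derived from it. The gene lengths behind TPM are not given in the sources used here. The 10 genes and the lists of other genes were chosen with earlier results of these data known.

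TPM was tested with limma 3.58.1 (trend) on log2(TPM + 1), which understates changes of low genes, in 1 fit of all 10 animals with stage as the only term, and the P-values were adjusted over 12645 genes. Single genes were compared on square root TPM by two-sided exact permutation. The alternatives were log2(TPM + 0.1), square root of TPM, no filter, median-ratio scaling, edgeR 4.0.16 (quasi-likelihood, TMM) and DESeq2 1.42.0 on the deposited counts, only the 2 stages compared, the replicate number as a block, and each animal left out (R 4.3.3). The F test under these settings, the substrates and the ratios to collagen I were added after the values were seen. Named are all 10 genes and the 3 closest genes of each, and genes of the lists with a call in at least 1 comparison could be named. ELN, CDH1, VIM, FBLN1, EVPL, CD68, CSF1R, CD3E, CD79A, P4HA1, MIA3, TLL1, TLL2, COL1A1 and COL1A2 fall outside this rule and were named after their values were seen. No column of another series was in the table, and read counts differed between every pair of animals. Limma and edgeR were also run on counts simulated at a constant dispersion without a shift of all genes, which differs from these data. P-values set the differences between stages against the spread between these animals, of which counting error is a part. The read numbers given show where counts are low.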

Additional observations from a re-analysis of the deposited data

How the results depend on the processing

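The 30 log2 fold changes of the 10 genes were recomputed under 18 alternatives each, 540 values in all. Of these, 474 kept their direction and their side of the threshold, 10 passed it newly, 20 no longer passed it and 36 had the other sign. None of the 6 changes called had the other sign (88 values kept the call, 20 lost it), and the losses are those of LOXL1 and LOXL3 named beside their values. The values of other sign belong to changes that were not called. With median-ratio scaling, edgeR and DESeq2, in this order, they were 0.049, 0.085 and 0.087 for LOX, 0.29, 0.27 and 0.27 for LOXL2, 0.057, 0.055 and 0.057 for PLOD1 and 0.24, 0.24 and 0.24 for SERPINH1 from NP to LT, and 0.074, 0.075 and 0.077 for PLOD3 from NP to MT, and with median-ratio scaling 0.0039 for LOXL4 from NP to MT. With 1 animal left out, the range crossed 0 from NP to MT for LOXL4 (-0.38 to 0.26), PLOD2 (-0.37 to 0.092) and PLOD3 (-0.14 to 0.0078), from MT to LT for PLOD1 (-0.075 to 0.27) and PLOD3 (-0.031 to 0.10), and from NP to LT for LOXL2 (-0.13 to 0.080), PLOD2 (-0.079 to 0.38), PLOD3 (-0.084 to 0.061) and SERPINH1 (-0.16 to 0.015).

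Of the 10 genes, 1 was called from MT to LT with no filter on low values (3 as reported), where 18100 genes were tested. With 1 animal left out, the number called was 1 to 3 from NP to MT (3 without MT replicate 1), 1 to 4 from MT to LT (1 without MT replicate 1 or 2 or LT replicate 2 or 3), 1 to 3 from NP to LT (1 without NP replicate 2) and 2 to 5 by the F test (5 without MT replicate 1). Of the other collagen synthesis genes, 5 as reported from NP to MT became 3 with edgeR and 1 with only the compared stages, and 8 from MT to LT became 5 with no filter. With 1 animal left out they were 0 to 7 from NP to MT, 2 to 8 from MT to LT and 10 to 16 from NP to LT. The limma count of 0 was without MT replicate 3, with 7 genes at an unadjusted P under 0.05. The NP to MT count was 1 without NP replicate 2 or 3 and 3 without MT replicate 1 or 2. From MT to LT it was 2 without MT replicate 2, 5 without MT replicate 3 and 4 without any 1 LT animal. Of the substrates and partners, 8 from NP to LT became 5 with edgeR, and leaving out 1 animal gave 3 to 4, 1 to 3 and 6 to 9, with 1 from MT to LT without MT replicate 2 or 3. Apart from the construction of each alternative, the cause of these differences was not tested. Over all genes and alternatives, 1100 to 4174 were called from NP to MT (2342 as reported), 1693 to 5323 from MT to LT (3723) and 5304 to 7726 from NP to LT (6718).

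The replicate numbers do not pair the animals. The deviations of same-numbered NP and MT animals correlated at 0.25, 0.16 and 0.08, NP replicate 3 correlated best with MT replicate 2 (0.25), and same-numbered MT and LT animals were at -0.15, -0.02 and 0.07. LT replicate 4 is the only animal of its number, so the block also takes it out of the stage differences. The median log2 fold change of all genes from MT to LT was -0.1446 both with the block and without LT replicate 4. With the replicate block, the calls over all genes were 1577, 1693 and 5448 in the 3 comparisons, 1, 2 and 2 of the 10 genes were called, the other collagen synthesis genes called were 3 from NP to MT and 1 from MT to LT, the substrates and partners called from MT to LT were 1, and LOXL2 from NP to LT had a log2 fold change of 0.053.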
